A study of Arabidopsis thaliana with 4 samples.

Results

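Aquaporins are channel proteins that carry water, and in some members small uncharged solutes or gases, across membranes. Plants sort them by sequence and by membrane. The plasma membrane intrinsic proteins (PIP1 and PIP2 groups) let water enter and leave the cell, and PIP1 proteins generally reach the plasma membrane in tetramers with PIP2 proteins. The tonoplast intrinsic proteins (TIP) carry water, and some of them ammonia or hydrogen peroxide, across the vacuolar membrane. The nodulin 26-like intrinsic proteins (NIP) carry mainly metalloids such as boric acid, and the small basic intrinsic proteins (SIP) sit in the endoplasmic reticulum. In leaves under osmotic stress, PIP channels are known for setting how easily water crosses living cells.

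The family was taken as the 35 *Arabidopsis thaliana* genes annotated as aquaporins, found by gene ID among the 27655 genes of the expression table. Names follow the usual scheme of group and number, written with a hyphen as protein databases do (PIP1-1 for PIP1;1). It has 5 PIP1, 8 PIP2, 10 TIP, 9 NIP and 3 SIP members. The study asked how the nuclease gene *AtBBD1* alters the transcriptome of leaves under drought imposed with polyethylene glycol (PEG), an osmoticum that withholds water from roots. There were 4 libraries, 1 for each condition: wild type (WT) at 0 h without PEG, and WT, an *AtBBD1* overexpressor (OX) and the *atbbd1* mutant, each 6 h after watering with 20% PEG. Plants were of the Col background, 3 weeks old and soil-grown, and each library came from pooled leaves of several plants. The overexpressor is a single homozygous line labelled p35S:AtBBD1, and its promoter is a constitutive one described in the methods as that of cassava vein mosaic virus. The mutant is a single T-DNA insertion line labelled a knock-out.

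Where 4 values are listed without labels, they belong to WT at 0 h and then to PEG-treated WT, OX and *atbbd1*. With 1 library per condition no difference had a replicate check, and no p-value was computed. Levels were given as FPKM, that is, fragments scaled both to transcript length and to the mapped fragments of the library, and so can be compared between genes. Between libraries FPKM allows for depth only. Scaling factors from the median of gene ratios ran from 0.952 in *atbbd1* to 1.035 in OX. The libraries held an estimated 15332000 to 17694000 mapped fragments. From these totals the reads behind each value were recovered, and each ratio is given with an exact 95% binomial interval. The interval covers counting error only, not the spread between plants or the choice of scaling. *AtBBD1* itself (AT1G75380) stood at 95.5 FPKM in WT at 0 h, 541 in PEG-treated WT, 631 in OX and 36.6 in *atbbd1*, so after PEG the overexpressor was 1.17-fold above WT (interval 1.14 to 1.19) and the mutant 14.8-fold below it (13.8 to 15.8). All 6 root markers were at or under 0.28 FPKM in every library and 4 of them were at 0, whereas the mesophyll marker *RBCS1A* lay between 8934 and 15027 FPKM. No library of untreated plants at 6 h was analysed here. The morning clock gene *LHY* was at 125 FPKM at 0 h and between 0.36 and 0.45 at 6 h, and the evening gene *TOC1* was at 1.77 FPKM at 0 h and between 52.7 and 64.8 at 6 h, so in WT the effects of PEG and of the hour cannot be told apart.

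Each aquaporin half-pore carries a box of 3 residues, Asn-Pro-Ala (NPA) in its usual form, that lines the narrow part of the channel. Both boxes read NPA in all 23 PIP and TIP members. Among the NIP members in these leaves, NIP1-2 had NPA and NPG, NIP5-1 had NPS and NPV, and NIP6-1 had NPA and NPV. The first box of the SIP members read NPT in SIP1-1, NPC in SIP1-2 and NPL in SIP2-1, each with NPA in the second. The coding stretches around the first box of 6 members, at least 1 from each of the 5 groups, are shown to let the box be compared between groups, with the 9 bases that encode it in capitals; they were read from the TAIR10.1 genome, where PIP1-2 lies at chr2:18910774-18911037 (plus strand) and PIP2-1 at chr3:19804645-19805151 (minus strand), both spans holding an intron that is left out here, TIP1-2 at chr3:9723425-9723463 (minus), TIP2-1 at chr3:5505868-5505906 (plus), NIP6-1 at chr1:30351482-30351520 (minus) and SIP1-1 at chr3:1073801-1073839 (minus).
PIP1-2: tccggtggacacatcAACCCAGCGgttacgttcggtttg
PIP2-1: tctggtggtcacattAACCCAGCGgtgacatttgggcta
TIP1-2: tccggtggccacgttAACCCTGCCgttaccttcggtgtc
TIP2-1: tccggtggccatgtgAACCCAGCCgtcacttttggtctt
NIP6-1: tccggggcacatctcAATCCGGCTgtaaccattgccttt
SIP1-1: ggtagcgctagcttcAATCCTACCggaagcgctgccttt

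Of the 35 members, 22 reached 1 FPKM in at least 1 library: all 5 PIP1 members, 7 of the 8 PIP2 members, 4 of the 10 TIP members, 3 of the 9 NIP members and the 3 SIP members. The other 13 stayed at or under 0.65 FPKM. *TIP1-3*, *TIP3-1*, *NIP4-1* and *NIP4-2* were listed at 0 in all 4 libraries. *TIP3-2*, *TIP4-1* and *TIP5-1* had 1 read each in WT at 0 h and none elsewhere, *NIP1-1* had 2 reads in PEG-treated WT and none elsewhere, and *PIP2-4* had at most 1 read in a library. *NIP3-1* ranged from 0 to 0.16 FPKM, *NIP2-1* from 0.17 to 0.56 and *NIP7-1* from 0.25 to 0.65. *TIP2-3*, a tonoplast channel that carries ammonia, had 8 reads (0.39 FPKM) in OX and none in the other libraries, where a count of 0 allows up to 3 reads. The 13 include genes known from pollen (*TIP1-3*, *TIP5-1*, *NIP4-1*, *NIP4-2*) and seed (*TIP3-1*, *TIP3-2*).

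**Figure D1:**
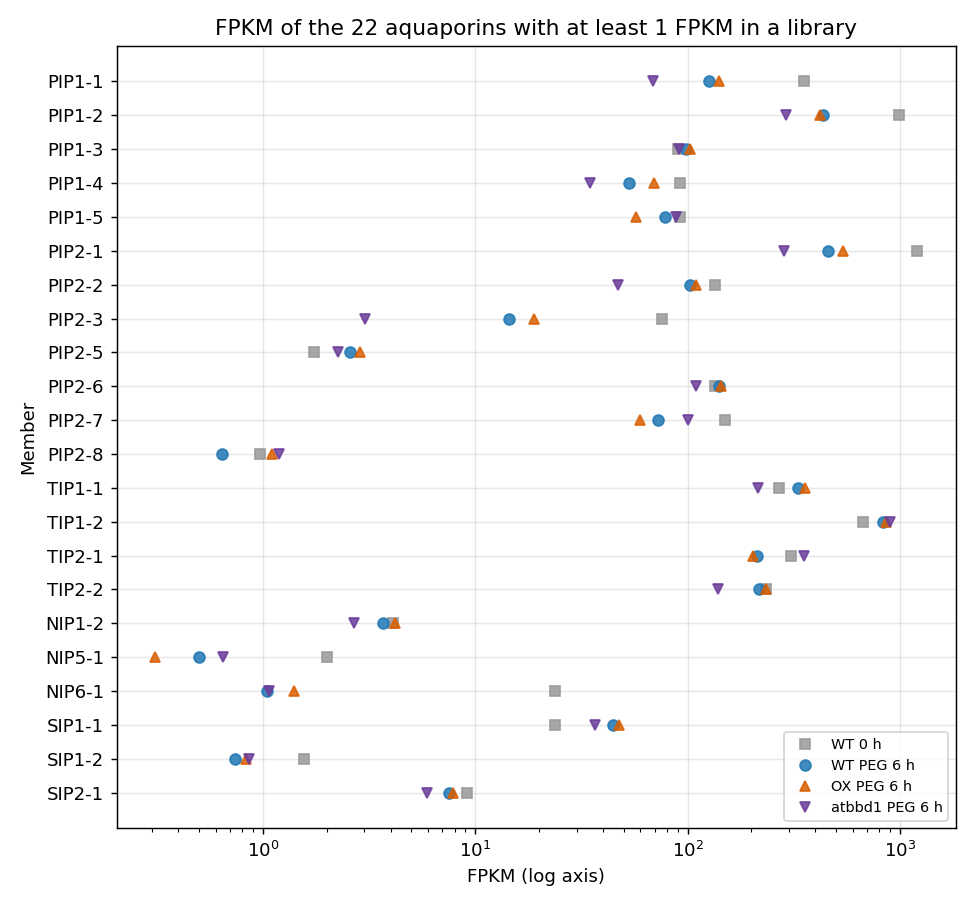
FPKM (log axis) of the 22 aquaporins with at least 1 FPKM in a library, 1 point for each library: WT at 0 h, and WT, OX and *atbbd1* after 6 h of PEG. The WT point at 0 h lies far to the right of the other points for PIP1-1, PIP1-2, PIP2-1, PIP2-3, NIP5-1 and NIP6-1. The *atbbd1* point lies farthest left for PIP1-1, PIP1-2, PIP1-4, PIP2-1, PIP2-2, PIP2-3, PIP2-6, TIP1-1, TIP2-2, NIP1-2 and SIP2-1.

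Across the family, transcript abundance was lower after PEG than at 0 h in WT, and the PIP groups made up the difference. Summed over all 35 members, the level was 4866 FPKM in WT at 0 h, 3234 in PEG-treated WT, 3388 in OX and 2777 in *atbbd1*, or 0.80%, 0.51%, 0.54% and 0.43% of all FPKM in those libraries. In bulk leaf RNA, fewer cells of a type and less RNA per cell cannot be told apart. Among the 22 members, 8 (36.4%) lay 2-fold or more below their level at 0 h in PEG-treated WT, and none lay 2-fold above it. Over the 16374 genes that passed the same filter of 1 FPKM, 15.9% were 2-fold lower and 16.1% 2-fold higher. The 8 were *PIP1-1*, *PIP1-2*, *PIP2-1*, *PIP2-3*, *PIP2-7*, *NIP5-1*, *NIP6-1* and *SIP1-2*. At any size 16 members were lower and 6 higher, with counting intervals that excluded 1 for 13 and 5 of them. On the log2(FPKM + 1) scale the median ratio was -0.33 over the members and 0.04 over all genes.

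Between genotypes, both after PEG, the members 2-fold apart were few, and the clearest were *PIP2-2* and *PIP2-3*, which were lowest in *atbbd1*. In OX against WT no member passed 2-fold in either direction, where 2.45% of all genes were 2-fold higher and 1.31% lower. In *atbbd1* against WT, 2 members were at least 2-fold lower (*PIP2-2* and *PIP2-3*) and none 2-fold higher, where 5.29% of all genes were lower and 1.07% higher. The members' share, 2 of 22 or 9.09%, rests on 2 neighbouring and near-identical genes. These comparisons share the WT library after PEG. In OX against *atbbd1*, which reuses the OX and *atbbd1* libraries of those comparisons so that its ratios are the quotients of theirs, *PIP1-1*, *PIP2-2* and *PIP2-3* were at least 2-fold higher in OX and *NIP5-1* 2-fold lower, where 7.33% of all genes were higher and 1.28% lower. Scaling the libraries by the median of their gene ratios instead brought *PIP1-1* to 1.88-fold. Median log2 ratios of the members were 0.09 for OX against WT (0.01 over all genes), -0.29 for *atbbd1* against WT (-0.09) and 0.36 for OX against *atbbd1* (0.09).

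**Figure D2:**
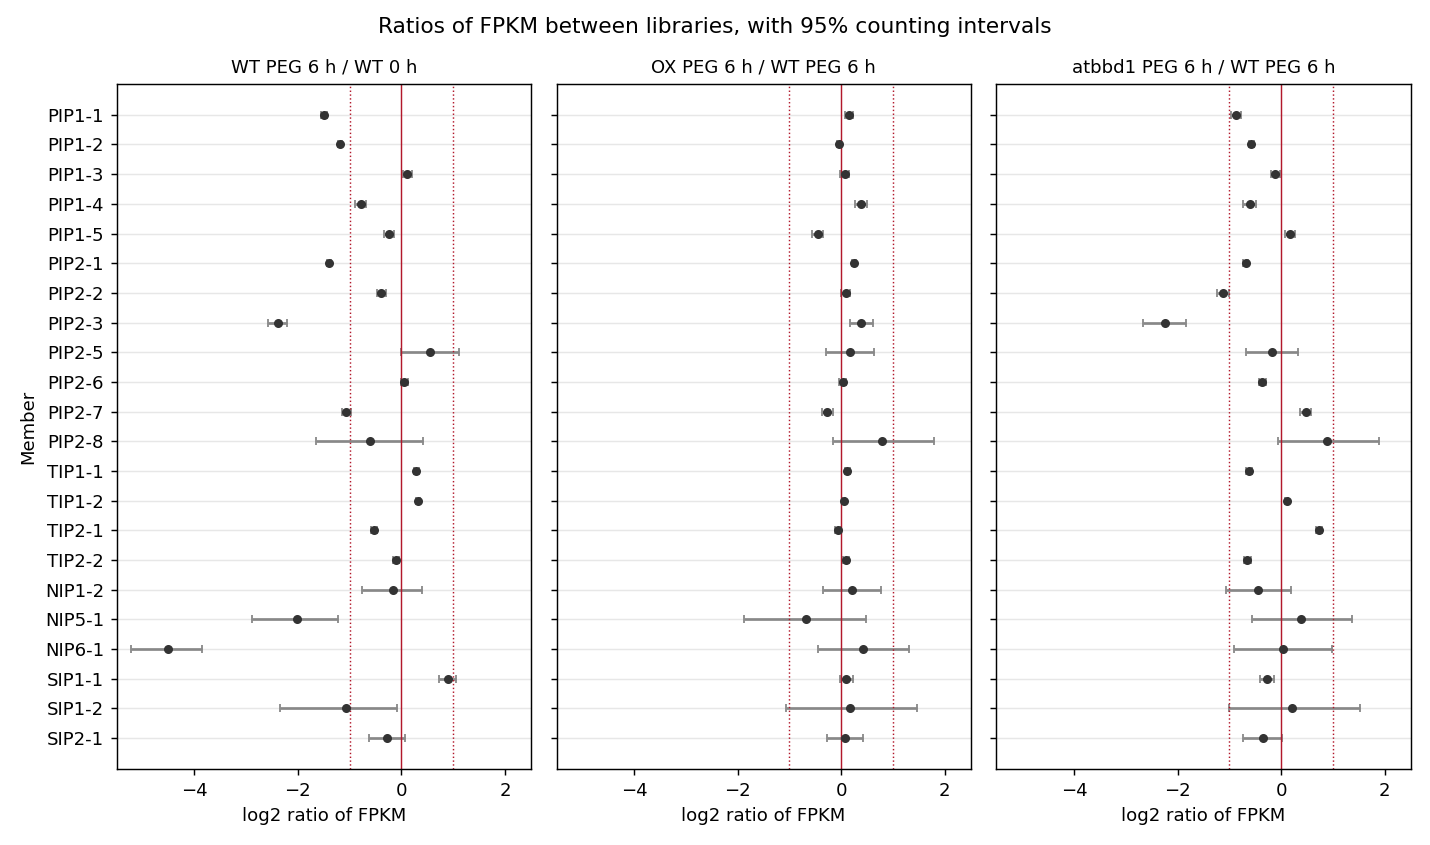
Log2 ratio of FPKM for the 22 members in PEG-treated WT against WT at 0 h, OX against PEG-treated WT, and *atbbd1* against PEG-treated WT; points are ratios of 1 library to 1 library, bars are 95% counting intervals, the solid line marks no difference and the dotted lines mark 2-fold. In the first comparison 8 members lie beyond the lower dotted line, in the second none passes a dotted line, and in the third PIP2-2 and PIP2-3 do.

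Plasma membrane and tonoplast channels differed in how they stood after PEG. PIP1 members summed to 1615 FPKM in WT at 0 h, 788 in PEG-treated WT, 789 in OX and 573 in *atbbd1*. PIP2 members summed to 1707, 792, 878 and 549 FPKM in turn. TIP members summed to 1479, 1595, 1659 and 1607 FPKM. The plasma membrane groups thus stood 2.05-fold (PIP1) and 2.15-fold (PIP2) lower after PEG in WT, while the TIP sum was 1.08-fold higher. The TIP share of the family's FPKM was 30.4% in WT at 0 h, 49.3% in PEG-treated WT, 49.0% in OX and 57.9% in *atbbd1*. *PIP2-1* led the family at 0 h with 24.8% of its FPKM, and *TIP1-2* led it in the 3 PEG libraries with 25.8%, 25.5% and 32.4%. The TIP difference rested on *TIP1-2*: without it the other TIP members summed to 0.94 times their level at 0 h.

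**Figure D3:**
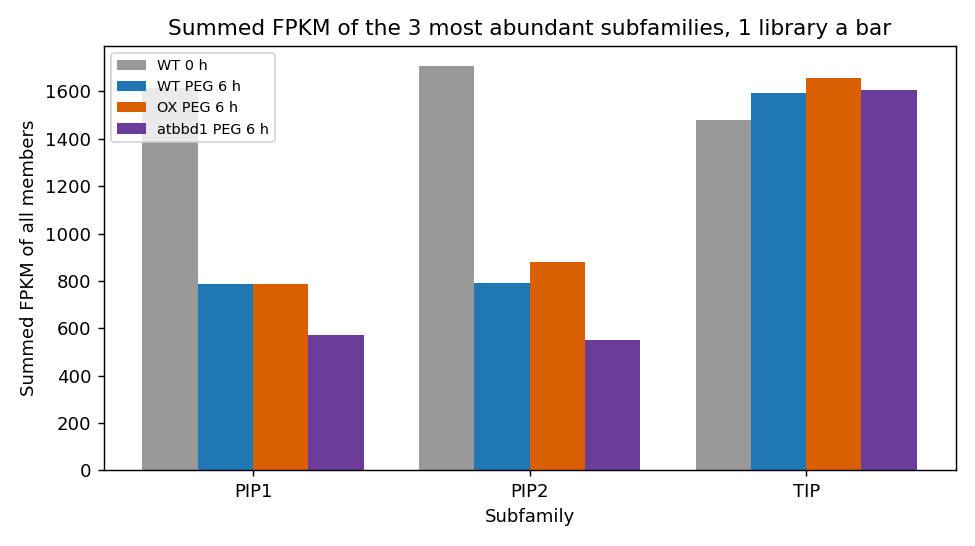
Summed FPKM of all PIP1, PIP2 and TIP members, each bar 1 library, axis from 0. The PIP1 and PIP2 bars for WT at 0 h (1615 and 1707) are about double those for PEG-treated WT (788 and 792), the *atbbd1* bars are the lowest of both groups, and the TIP bars lie between 1479 and 1659.

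Within PIP1, the 2 members that led at 0 h differed most across PEG in WT. *PIP1-2* (AT2G45960), which also conducts carbon dioxide, was the leading PIP1 member in every library, at 986 FPKM in WT at 0 h, 432 in PEG-treated WT, 419 in OX and 290.2 in *atbbd1*. PEG-treated WT stood 2.28-fold below WT at 0 h (interval 2.22 to 2.34), and *atbbd1* stood a further 1.49-fold below PEG-treated WT (1.44 to 1.54). OX lay 1.03-fold below PEG-treated WT in this gene (1.00 to 1.06). *PIP1-1* (AT3G61430), a water channel, was at 355 FPKM in WT at 0 h, 126 in PEG-treated WT, 140.3 in OX and 68.8 in *atbbd1*. It was 2.82-fold lower after PEG in WT (2.69 to 2.94), and in *atbbd1* it was 1.83-fold below WT (1.72 to 1.95) and in OX 2.04-fold above *atbbd1* (1.92 to 2.17). So *PIP1-1* was lowest in the mutant and highest before stress.

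*PIP1-4* (AT4G00430), which also carries hydrogen peroxide into the cell, was at 91.8, 53.2, 69.3 and 34.8 FPKM, in the order given above. It was 1.73-fold lower after PEG in WT (1.60 to 1.86), 1.30-fold higher in OX than in WT (1.21 to 1.41) and 1.53-fold lower in *atbbd1* than in WT (1.39 to 1.67). This was the PIP1 member furthest above WT in OX, and OX against *atbbd1* came to 1.99-fold, just short of 2-fold. *PIP1-5* (AT4G23400) was at 91.9, 78.0, 56.9 and 88.1 FPKM, and it lay lower in OX than in WT by 1.37-fold (1.28 to 1.48) and higher in *atbbd1* by 1.13-fold (1.06 to 1.21). Its order among the PEG libraries was the reverse of that of *PIP1-4*. *PIP1-3* (AT1G01620) varied least, at 90.5, 98.0, 102.9 and 90.7 FPKM.

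In PIP2, *PIP2-1* and *PIP2-3* showed the largest differences across PEG in WT. *PIP2-1* (AT3G53420), a water channel phosphorylated in guard cells by the ABA-activated kinase OST1, was at 1208 FPKM in WT at 0 h, 459 in PEG-treated WT, 542 in OX and 285 in *atbbd1*. It was 2.63-fold lower after PEG in WT (2.57 to 2.70), 1.18-fold higher in OX than in WT (1.15 to 1.21) and 1.61-fold lower in *atbbd1* (1.56 to 1.66). OX stood 1.90-fold above *atbbd1* (1.84 to 1.96).

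*PIP2-3* (AT2G37180), first isolated as the dehydration-responsive gene *RD28*, was at 75.5 FPKM in WT at 0 h, 14.4 in PEG-treated WT, 18.9 in OX and 3.04 in *atbbd1*. It rested on 1412, 276, 407 and 63 reads. It was 5.25-fold lower after PEG in WT (4.61 to 5.99) and 4.73-fold lower in *atbbd1* than in PEG-treated WT (3.59 to 6.33), and in OX it was 1.31-fold above WT (1.12 to 1.53) and 6.20-fold above *atbbd1* (4.75 to 8.22). This was the widest gap between genotypes of any member. Its neighbour *PIP2-2* (AT2G37170), also a plasma membrane water channel, was at 134.6, 102.7, 109.0 and 47.3 FPKM, and was 1.31-fold lower after PEG in WT (1.24 to 1.39), 2.17-fold lower in *atbbd1* than in PEG-treated WT (2.01 to 2.35) and 2.31-fold higher in OX than in *atbbd1* (2.14 to 2.49). Both genes were lowest in the mutant, but *PIP2-3* differed far more across PEG in WT than *PIP2-2* did.

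*PIP2-2* and *PIP2-3* are divergent neighbours on chromosome 2 with 2612 bases between them, and they are near-identical copies. Their coding sequences differed at 45 of 858 aligned bases (94.8% identity), their proteins were 96.8% identical, and the longest identical run was 242 bases. Of all 50-base windows in the longest annotated transcript of each, 19.6% (*PIP2-2*) and 21.7% (*PIP2-3*) were shared exactly with the other gene. The only other pair of members to share any was *NIP4-1* and *NIP4-2*, both at 0. Reads from such windows could have been assigned to either gene, so the split between this pair is less certain than that of other members. The 60 coding bases with the most differences are shown, with the 10 differing bases in capitals. These bases are an example of where reads can tell the copies apart. In TAIR10.1 they lie at chr2:15614198-15614257 (minus strand) for *PIP2-2* and at chr2:15618313-15618372 (plus strand) for *PIP2-3*.
PIP2-2: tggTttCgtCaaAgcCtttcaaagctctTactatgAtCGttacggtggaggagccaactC
PIP2-3: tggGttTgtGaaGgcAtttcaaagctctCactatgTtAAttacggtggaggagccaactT

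*PIP2-7* (AT4G35100), a water channel whose protein is removed by autophagy through the ABA-induced membrane protein TSPO, was at 150.7 FPKM in WT at 0 h, 72.2 in PEG-treated WT, 59.97 in OX and 100.1 in *atbbd1*. It was 2.09-fold lower after PEG in WT (1.96 to 2.23), 1.20-fold lower in OX than in WT (1.11 to 1.30) and 1.39-fold higher in *atbbd1* than in WT (1.29 to 1.49). The order of *PIP2-7* among the genotypes was thus the reverse of that of *PIP2-1*. *PIP2-6* (AT2G39010), a water channel of the leaf vasculature, was at 135, 141, 144 and 109.6 FPKM, with the mutant 1.28-fold below PEG-treated WT (1.22 to 1.35) and the interval for PEG in WT including 1. *PIP2-5* (AT3G54820) was at 1.75, 2.56, 2.87 and 2.27 FPKM, and *PIP2-8* (AT2G16850) at 0.97, 0.64, 1.11 and 1.19 FPKM on 15 to 30 reads, too few to separate the PEG libraries.

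Across PEG in WT, the 2 expressed TIP1 genes were higher and the 2 expressed TIP2 genes lower, whereas in *atbbd1* each pair was divided. *TIP1-2* (AT3G26520), which carries water and hydrogen peroxide, was at 668 FPKM in WT at 0 h, 835 in PEG-treated WT, 863 in OX and 901 in *atbbd1*. It was 1.25-fold higher after PEG in WT (1.22 to 1.28), and OX and *atbbd1* lay within 1.08-fold of PEG-treated WT. *TIP1-1* (AT2G36830), the other member of the same pair of water channels, was at 269.8, 329.9, 358 and 215 FPKM, which made it 1.22-fold higher after PEG in WT (1.18 to 1.27) and 1.53-fold lower in *atbbd1* than in PEG-treated WT (1.47 to 1.59). The 2 genes were both higher after PEG in WT, and differed in *atbbd1*, where *TIP1-1* alone was below its level at 0 h.

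*TIP2-1* (AT3G16240), a channel for water and ammonia, was at 307 FPKM in WT at 0 h, 212 in PEG-treated WT, 204 in OX and 352 in *atbbd1*. It was 1.45-fold lower after PEG in WT (1.39 to 1.51), and its level in *atbbd1* was 1.66-fold above PEG-treated WT (1.60 to 1.73). Of the 22 members, *PIP2-8* alone had a higher ratio to WT in the mutant, on 15 and 30 reads. *TIP2-2* (AT4G17340), of the same class, was at 233.7, 217.8, 233.4 and 138.7 FPKM. It was 1.07-fold lower after PEG in WT (1.03 to 1.12), and in *atbbd1* it was 1.57-fold below PEG-treated WT (1.501 to 1.64). The 2 TIP2 genes therefore lay on opposite sides of WT in the mutant. The gene *TIP2-1* shares 120 bases with *PnsB3*, a chloroplast NDH subunit gene on the other strand, which was at 78.4, 131.5, 138.0 and 206 FPKM and so was also highest in *atbbd1*. It also shares 445 bases with AT3G03265 on the other strand, for which no level was listed. The methods name a stranded TruSeq kit and default HISAT2 settings, the labels name a standard TruSeq mRNA kit, and neither says whether strand was used in counting. The part of these overlaps in the *TIP2-1* values was not tested.

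NIP members were the scarcest of the family, and 1 of them showed its largest difference. *NIP6-1* (AT1G80760), which distributes boric acid to young shoot tissue, was at 23.8 FPKM in WT at 0 h, 1.05 in PEG-treated WT, 1.40 in OX and 1.07 in *atbbd1*, on 443, 20, 30 and 22 reads. It was 22.7-fold lower after PEG in WT (14.5 to 37.6). All 3 PEG libraries were low, and their intervals against each other included 1. Of the 5 trichome markers *TRY* alone was likewise high at 0 h only, at 24.1, 0.70, 0.25 and 0.20 FPKM. The trichome marker *NOK* was 1.61-fold lower after PEG in WT, with an interval that included 1 (0.93 to 2.84). The markers *GL1*, *GL2* and *GL3* stayed at or under 0.31 FPKM in every library. The part of trichomes in the *NIP6-1* values was not tested. *NIP6-1* carried 78.1% of the NIP sum of 30.5 FPKM at 0 h, while *NIP1-2* led the sums of 5.78, 6.99 and 5.40 FPKM after PEG. *NIP6-1* overlaps AT1G80750 on the other strand by 26 bases, a gene that was at 33.3, 7.82, 9.10 and 8.89 FPKM, and the part of that overlap was not tested. *NIP5-1* (AT4G10380), the boric acid channel of root uptake, was at 2.01, 0.50, 0.31 and 0.65 FPKM, 4.02-fold lower after PEG in WT (2.35 to 7.35) on 67 and 17 reads. It was 2.097-fold lower in OX than in *atbbd1* on 12 and 24 reads, an interval of 1.00 to 4.57, and adding 0.1 to each FPKM took it under 2-fold. *NIP1-2* (AT4G18910), which transports aluminium malate in roots, was at 4.08, 3.66, 4.2 and 2.70 FPKM on 40 to 65 reads.

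SIP members stayed low except *SIP1-1*. *SIP1-1* (AT3G04090), an endoplasmic reticulum water channel, was at 23.8 FPKM in WT at 0 h, 44.4 in PEG-treated WT, 47.6 in OX and 36.8 in *atbbd1*. It was 1.86-fold higher after PEG in WT (1.67 to 2.09), the highest ratio of any member in that comparison, and 1.21-fold lower in *atbbd1* than in PEG-treated WT (1.098 to 1.33). *SIP1-2* (AT5G18290) was at 1.56, 0.74, 0.83 and 0.86 FPKM on 24, 11, 14 and 14 reads, 2.11-fold lower after PEG in WT (1.06 to 5.06). *SIP2-1* (AT3G56950), also of the endoplasmic reticulum, was at 9.14, 7.53, 7.88 and 5.91 FPKM. It shares 147 bases on the other strand with *CRD1*, a chlorophyll synthesis gene at 1126 to 2323 FPKM, and 203 with AT3G08805. *SIP1-2* shares 444 bases with *NAC088*, at 0.89 to 2 FPKM, and 209 with AT5G02885. No level was listed for AT3G08805 or AT5G02885. The levels of both SIP genes are thus uncertain where strand was not used.

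Protein identity was highest within PIP1, from 84.6% to 97.6% over 10 pairs with a median of 93.0%, and it was 75.5% to 96.8% within PIP2, 39.9% to 92.0% within TIP, 35.8% to 84.1% within NIP and 28.3% to 72.8% within SIP. PIP1 and PIP2 proteins were 61.9% to 75.5% identical to each other, and pairs from different families among PIP, TIP, NIP and SIP 20.3% to 43.6%. Each protein was translated from the longest annotated coding sequence of its gene. PIP1-2 came to 301 residues and the other PIP1 members to 286 or 287. PIP1 pairs with PIP1-2 ran from 84.6% to 89.5%, and those without it from 92.3% to 97.6%. The 61.9% was for PIP1-2 and PIP2-2, the latter at 328 residues against 285 for PIP2-3. The part of the chosen transcript in these values was not tested. In *PIP1-3* and *PIP1-4*, the closest pair at 97.6%, the levels differed: *PIP1-3* ranged from 90.5 to 102.9 FPKM and *PIP1-4* from 34.8 to 91.8. In the 250 bases before each start, the ABA-responsive element core ACGTG, on either strand, was found in 2 of the 22 members (*TIP1-1* and *SIP1-1*) and in 23.4% of expressed genes. The dehydration-responsive element core CCGAC was in 4 of 22 (*PIP1-3*, *PIP2-5*, *TIP1-1* and *TIP1-2*) and in 13.5% of expressed genes, and the evening element AAAATATCT was in none of the 22 and in 2.67%.

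Genes that act on aquaporin proteins were read beside the channels. Of 17 such genes, 15 reached 1 FPKM. In PEG-treated WT against 0 h 3 were at least 2-fold higher (*RMA1*, *TSPO* and *VAMP721*) and 3 lower (*RMA2*, *BCA4* and AT3G02880), a share of 3 in 15 each way that is close to the 16.1% and 15.9% over all genes. *RMA1*, a ubiquitin ligase of the endoplasmic reticulum whose pepper counterpart holds PIP2-1 there, was at 1.38, 18.9, 17.6 and 19.5 FPKM in the 4 libraries, 13.7-fold higher after PEG in WT (9.26 to 20.4). Its relative *RMA2* was at 35.7, 11.01, 8.58 and 12.9 FPKM, 3.24-fold lower after PEG in WT (2.77 to 3.80). Both RMA genes thus differed across PEG in opposite directions, and by less than 1.3-fold between WT and either genotype. *BCA4*, a carbonic anhydrase that binds PIP2-1, was at 138.7, 47.3, 49.1 and 62.6 FPKM, 2.93-fold lower after PEG in WT (2.74 to 3.14).

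*TSPO* (AT2G47770), which directs PIP2-7 to degradation, was at 0.06 FPKM in WT at 0 h, 5.36 in PEG-treated WT, 24.8 in OX and 0 in *atbbd1*, on 1, 88, 458 and 0 reads. It was 4.63-fold higher in OX than in PEG-treated WT (3.68 to 5.88), and the *atbbd1* library lay at least 31.7-fold below PEG-treated WT when the 0 is replaced by 3 reads in that library. Of the 15 regulators past the filter, *TSPO* was the only one at least 2-fold higher in OX and the only one that lay 2-fold or more below WT in *atbbd1*. Over all genes, 2.45% were 2-fold higher in OX than in WT and 5.29% were 2-fold lower in *atbbd1*. *SYP122*, which encodes a plasma membrane syntaxin, was 2.04-fold lower in OX than in PEG-treated WT (1.55 to 2.69), at 3.37 against 6.86 FPKM, and was at 3.71 FPKM in *atbbd1*. Its relative *SYP121*, whose product takes part in delivering PIP2-7 to the plasma membrane, was at 12.5, 12.3, 8.93 and 7.24 FPKM, and *OST1* at 5.47, 6.53, 9.17 and 5.99 FPKM.

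Pumps and boron exporters stayed within 2-fold in all 3 comparisons with WT. None of the 7 pump and channel genes passed it, where 16.1% of all genes were 2-fold higher and 15.9% lower across PEG in WT. Between either genotype and WT the shares over all genes ran from 1.07% to 5.29% in a direction. The furthest of the 7 was the vacuolar pyrophosphatase gene *AVP1* at 186.4, 93.7, 87.0 and 117.5 FPKM, 1.99-fold lower after PEG in WT (1.91 to 2.07). The plasma membrane proton pump gene *AHA1* was at 83.1, 54.4, 52.1 and 53.3 FPKM. Of 3 boron exporter genes only *BOR1* reached 1 FPKM, at 6.65, 5.08, 5.13 and 6.15 FPKM, 1.31-fold lower after PEG in WT against 22.7-fold for *NIP6-1*.

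Markers of other leaf cells differed between libraries as well. The 7 vascular markers summed to 120.7 FPKM in WT at 0 h, 70.9 in PEG-treated WT, 78.8 in OX and 118.7 in *atbbd1*, and 4 of them (*SUC2*, *APL*, *SWEET11* and *SWEET12*) were above PEG-treated WT in *atbbd1* with intervals that excluded 1, by 1.48-fold to 2.05-fold, while the intervals of the other 3 included 1. The phloem loading gene *SUC2* was at 44.9, 17.1, 23.5 and 35.1 FPKM. The 5 guard cell markers summed to 27.6, 11.9, 8.29 and 16.6 FPKM. Of these, *GC1* was at 10.4, 3.25, 0.44 and 6.93 FPKM, on 4 reads in OX. The intervals of *FAMA*, *MYB60* and *KAT1* included 1 for OX and *atbbd1* against PEG-treated WT, and *SLAC1* stayed at or under 0.78 FPKM. The 4 mesophyll markers summed to 29240, 20480, 19310 and 25140 FPKM, but differed in direction. Across PEG in WT, *CAB3* was 2.36-fold higher and the other 3 lower, *RCA* by 3.55-fold. In *atbbd1*, *LHCB2.1* was 1.11-fold below PEG-treated WT and the other 3 above it. The 5 trichome markers summed to 26.3, 2.1, 1.84 and 1.82 FPKM, nearly all of it at 0 h from *TRY*, and the 6 flower, pollen and seed markers to 2.83, 1.06, 0.99 and 1.35 FPKM. The part of cell makeup in the aquaporin values was not tested.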

How the data were processed

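RNA of 4 leaf pools, 1 for each condition, was sequenced on an Illumina NextSeq instrument. The authors trimmed adapters and mapped reads to TAIR10; the methods name HISAT2 and the submitters' processing notes TopHat2. The deposited values are FPKM per gene made with the Cufflinks pipeline (named RPKM in the methods). Columns were matched to conditions by their names and labels. A gene was kept at 1 FPKM or more in at least 1 library (16374 of 27655) and called at a ratio of 2-fold or more. Medians of log2 ratios used a pseudocount of 1.

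Library totals were estimated from the steps of low FPKM values of single-transcript genes, with exon lengths of TAIR10.1; at the estimated total 99.2% to 99.3% of these values came within 0.15 of a whole read, against 23.8% to 24.6% at other totals. Reads per member use the shortest annotated transcript. Totals were recovered within 0.03% on simulated data. Ratio intervals are exact binomial (Clopper-Pearson) and a library at 0 was given a floor of 3 reads. Python 3.11.15, scipy 1.17.1 and pandas 2.3.3 were used. With 1 library per group no test across genes was run. Members and gene lists were chosen with earlier results of these data known. Every member past the filter was named. For the regulator, pump and boron exporter lists, up to 2 genes with the highest and 2 with the lowest log2 ratio were named in each comparison. Alternatives tried were other filters, thresholds, pseudocounts and scalings.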

Additional observations from a re-analysis of the deposited data

How the results depend on the processing

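With 1 library per condition no replicate could be left out, and depth limits the members under about 30 reads. No paired analysis was possible because each condition has 1 library. Rescaling the libraries by median-of-ratios factors shifted every log2 ratio of *atbbd1* against WT by 0.10 and of OX against *atbbd1* by -0.12. Of 88 member ratios none crossed 1, but 26 fell outside their own counting interval. In *atbbd1* against WT, *PIP2-1* moved from 0.621 (interval 0.602 to 0.642) to 0.668 and *PIP1-3* from 0.925 (0.868 to 0.985) to 0.995. The counting intervals thus do not cover the choice of scaling. The counts for WT and *atbbd1* against WT stayed at 8 and 2 lower. OX against *atbbd1* had 2 higher in place of 3, *PIP1-1* standing at 1.88, with a median of 0.25. A common FPKM sum gave 4 higher in that comparison. Every called member had a counting interval that excluded 1.

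At a 1.5-fold threshold WT after PEG had 1 member higher than at 0 h, OX against WT 1 higher and 1 lower, *atbbd1* against WT 2 higher and 7 lower, and OX against *atbbd1* 8 higher and 4 lower. At 4-fold the lower counts were 3 for WT after PEG, 1 for *atbbd1* against WT and 0 for OX against *atbbd1*, with 1 higher in the last. With no filter, counts of higher members were 1 for OX against WT and 1 for *atbbd1* against WT, OX against *atbbd1* had 2 lower, and the medians were -0.084 for WT after PEG, 0 for *atbbd1* against WT and 0 for OX against *atbbd1*, since members at 0 then enter. The 1 member lower in OX than in *atbbd1*, *NIP5-1*, was lost (0 lower) with a filter of 5 FPKM, with 1 added to each FPKM and with 0.1 added, and 0.1 added moved the median for WT after PEG to -0.46. Without the most abundant member, the sums of WT after PEG over 0 h were 0.56 for PIP1, 0.67 for PIP2 and 0.94 for TIP, the last on the other side of 1, and *atbbd1* over WT for PIP2 was 0.79.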
